A study of Mus musculus with 8 samples.

Results

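The Wnt ligands described here are the 10 genes *Wnt2*, *Wnt2b*, *Wnt4*, *Wnt5a*, *Wnt5b*, *Wnt6*, *Wnt7a*, *Wnt7b*, *Wnt9a* and *Wnt11*. They were picked by gene symbol from the 36536 genes in the count tables, and all 10 were found. The cells came from cochleas of *Lfng-GFP* BAC transgenic mice (B6;FVB-Tg(Lfng-EGFP)HM340Gsat/Mmucd) at postnatal day 1 (P1) or day 6 (P6), freshly dissected, without culture or treatment. All 4 groups carry this transgene, which marks border, inner phalangeal, outer pillar and Deiters' cells but not inner pillar cells. At each age only the brightest GFP+ cells were taken as supporting cells, and cells with low GFP were not collected, so the GFP- cells hold the remaining cell types without those. Each group has 2 replicate libraries of pooled sorted cells, 8 libraries in all, and p-values therefore measure only the spread between such libraries. At P1 the dissection left out Reissner's membrane and the lateral wall with its stria vascularis, and at P6 these were removed only in part. Age and the cell make-up of either fraction therefore cannot be told apart.

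Wnt proteins are secreted glycoproteins that the acyltransferase Porcn modifies with a lipid and that the carrier protein Wls brings to the cell surface. At a receiving cell they bind Frizzled receptors, together with Lrp5 or Lrp6 to stabilise β-catenin, or with receptors such as Ror2 to steer cell polarity without β-catenin. In the neonatal cochlea, β-catenin signalling is known for supporting cell proliferation, and *Wnt5a* for its part in planar cell polarity and outgrowth of the cochlear duct.

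The lipid is attached to a serine in a motif shared by all 10 ligands, shown here because it is the sequence feature they have in common. Each line gives the 24 coding bases of the motif from the NCBIM37 (mm9) annotation, 5′ to 3′, with the serine codon in capitals.
*Wnt7a*: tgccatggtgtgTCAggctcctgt
*Wnt7b*: tgtcacggtgtgTCAggctcctgt
*Wnt2*: tgtcatggtgtgAGTggctcctgt
*Wnt2b*: tgtcacggtgtgAGTggctcctgt
*Wnt4*: tgtcacggggtgTCGggctcctgc
*Wnt9a*: tgccatggtgtgTCTggctcctgc
*Wnt6*: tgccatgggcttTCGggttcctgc
*Wnt5a*: tgtcatggagtgTCTggctcctgt
*Wnt5b*: tgtcacggagtcTCCgggtcctgc
*Wnt11*: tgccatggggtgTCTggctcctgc
In *Wnt7a* these bases lie in coding exon 4 of 4 (chr6:91316266-91316289, minus strand) and the serine is codon 206 of 349. In *Wnt5a* they lie in exon 5 of 5 (chr14:29335701-29335724, plus strand) and the serine is codon 244 of 380. *Wnt2* and *Wnt2b* use the codon AGT, and the other 8 ligands use a codon that starts with TC. Over the whole coding sequence, the closest of the 45 pairs of ligands were *Wnt7a* with *Wnt7b* (77.1% identical over 1050 aligned bases) and *Wnt5a* with *Wnt5b* (76.9% over 1119). The longest run of identical bases was 23 in the first pair and 29 in the second, against a read length of 100 bases.

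The 8 libraries held between 17769024 and 67695039 counts on genes. A level is given as CPM, the count scaled to a total of 1000000 gene counts in the library, or, where genes are compared with each other, as CPM per kilobase of exon (RPKM). The 6 supporting cell markers summed to between 5085 and 8242 CPM in the GFP+ libraries and between 139 and 254 CPM in the GFP- libraries, and all 6 were past the criteria in GFP+ cells at both ages. Of 6 hair cell markers, 4 were also past the criteria in GFP+ cells at both ages, with sums of 400 to 786 CPM in GFP+ and 334 to 451 CPM in GFP- cells. In P6 GFP+ replicate 2, the summed markers of mesenchyme and fibrocytes (2859 against 995 CPM), endothelium (248 against 64.9 CPM), Schwann cells (2366 against 1114 CPM) and melanocytes (83.5 against 26.3 CPM) were higher than in replicate 1, and the supporting cell markers were lower (5085 against 7014 CPM). The summed markers of strial marginal cells (57.6 against 7.26 CPM) and erythroid cells (76.5 against 20.9 CPM) differed in the same direction. Values without this library are given beside P6 results of the ligands and of some pathway genes, and not beside every result that it changes.

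On the RPKM scale, *Wnt7a* and *Wnt7b* had the highest levels of the 10 ligands in GFP+ cells, and *Wnt5a* had the highest level in GFP- cells, at both ages. In GFP+ cells at P1, *Wnt7a* stood at 82.5 ± 4.12 RPKM (SD, n = 2), *Wnt7b* at 13.3 ± 0.292 and *Wnt5a* at 5.63 ± 0.0305, and no other member exceeded 2.61 RPKM in a P1 GFP+ library. In GFP- cells at P1, *Wnt5a* stood at 36.7 ± 1.21 RPKM and the next ligand, *Wnt9a*, at 4.37 ± 0.821. The order of the first 3 ligands in GFP+ cells was the same at P6, at 58.7 ± 10.2 RPKM for *Wnt7a*, 18.0 ± 2.71 for *Wnt7b* and 10.6 ± 6.56 for *Wnt5a*, and none of these neighbours overlapped. In CPM, *Wnt5a* (46.9 and 120) overlapped with *Wnt7b* (87.9 and 71.0) in P6 GFP+ cells, so their order there depends on the division by exon length. In P1 GFP+ cells, *Wnt4* overlapped with *Wnt5b*, and *Wnt6* with *Wnt11*, further down the order. Below the first 3, the ranges of *Wnt9a*, *Wnt2b*, *Wnt5b*, *Wnt4*, *Wnt2*, *Wnt6* and *Wnt11* each overlapped with that of the next in P6 GFP+ cells. In P1 GFP- cells, *Wnt6*, *Wnt5b*, *Wnt7b*, *Wnt7a* and *Wnt2b* (between 1.42 and 3.69 RPKM on average) likewise overlapped with their neighbours. In P6 GFP- cells, *Wnt5a* stood at 67.0 ± 5.12 RPKM and *Wnt5b* followed at 4.98 ± 0.373, while *Wnt9a* overlapped with *Wnt2b*, *Wnt6* with *Wnt7b*, and *Wnt2* with *Wnt7a*.

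**Figure D1:**
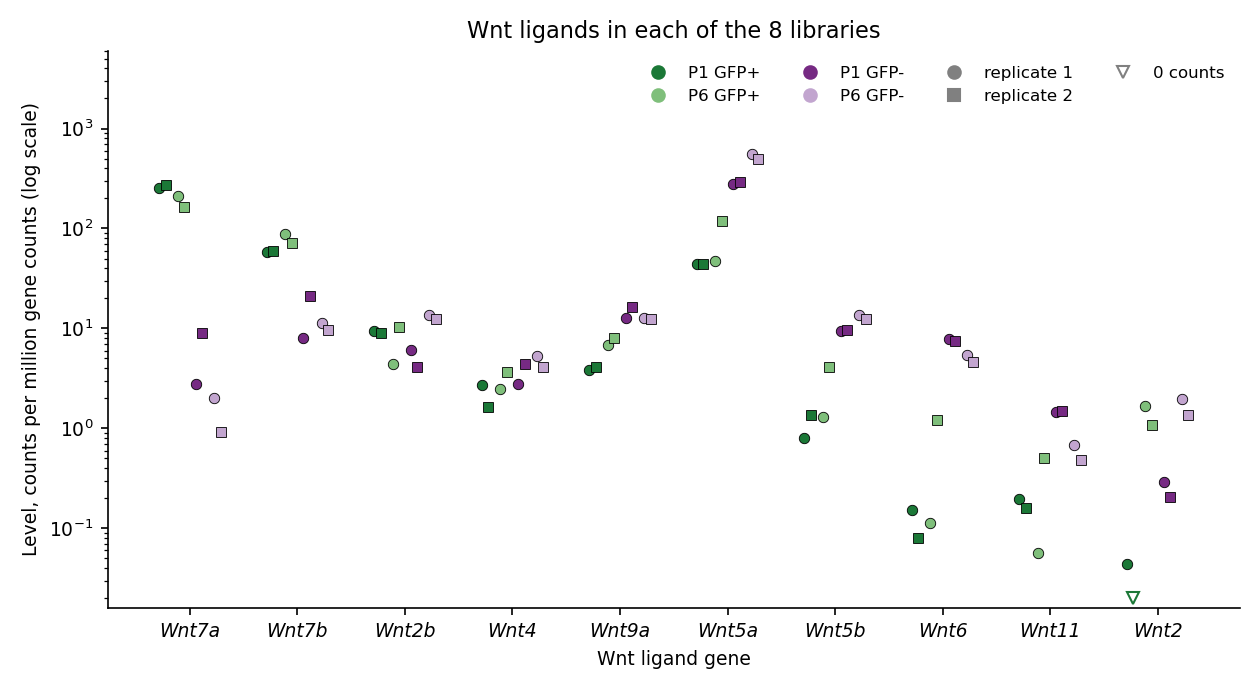
Level of each Wnt ligand in the 8 libraries, in CPM on a log scale, with colours for the 4 groups, circles for replicate 1, squares for replicate 2 and an open triangle for 0 counts. *Wnt7a* lies between 163 and 271 CPM in the GFP+ libraries and between 0.916 and 9.02 CPM in the GFP- libraries, and *Wnt5a* between 43.9 and 120 CPM in the GFP+ libraries and between 280 and 553 CPM in the GFP- libraries.

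As shares of the summed RPKM of 19 Wnt ligand genes, *Wnt7a* and *Wnt7b* made up 89.4% and 90.1% of the ligand transcripts of GFP+ cells at P1, and 88.1% and 73.1% at P6. In GFP- cells they made up 5.03% and 12.4% at P1 and 3.43% and 2.99% at P6. *Wnt5a* and *Wnt5b* together had the opposite pattern, with 5.75% and 5.59% at P1 and 6.67% and 18.3% at P6 in GFP+ cells, against 74.1% and 66.9% at P1 and 82.1% and 82.4% at P6 in GFP- cells. The lower *Wnt7* share and the higher *Wnt5* share at P6 were both in GFP+ replicate 2, the library with more counts of markers of other cell types. The summed RPKM of all 19 ligands was 104 and 110 at P1 and 97.4 and 92.3 at P6 in GFP+ cells, and 53.3 and 61.7 at P1 and 92.5 and 82.6 at P6 in GFP- cells. On the RPKM scale the GFP+ libraries of both ages thus lay above the P1 GFP- libraries in their total, and the ranges of the P6 fractions overlapped. In summed CPM of the 10 members this was not so. The P6 GFP- libraries (619 and 555 CPM) then lay above the P6 GFP+ libraries (361 and 383 CPM). The latter overlapped with the P1 GFP- libraries (332 and 368 CPM). The shares also depend on the division by exon length. From CPM alone, *Wnt5a* and *Wnt5b* made up 12.05% and 11.5% at P1 and 13.3% and 32.1% at P6 in GFP+ cells, and *Wnt7a* and *Wnt7b* 83.01% and 84.2% at P1 and 82.0% and 60.8% at P6. These shares were not tested.

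**Figure D2:**
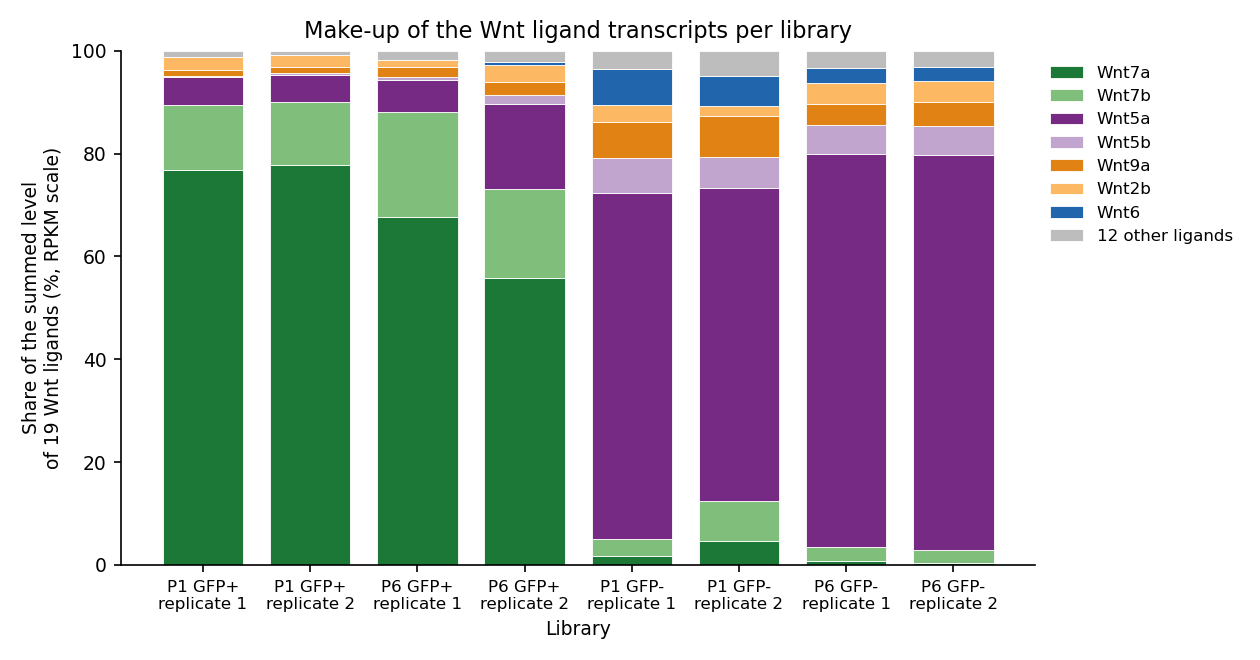
Share of each Wnt ligand in the summed RPKM of 19 Wnt ligand genes, in percent, with 1 bar per library and 12 ligands of low level drawn together in grey. *Wnt7a* and *Wnt7b* (green) fill 73.1% to 90.1% of the GFP+ bars, and *Wnt5a* (dark purple) fills 60.9% to 76.7% of the GFP- bars.

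The 9 ligand genes outside the set had low levels, and 2 of them (*Wnt3* and *Wnt16*) had enough counts to be tested in each comparison of fractions, where neither passed, although *Wnt16* did at P6 without P6 GFP+ replicate 2 (log2 fold change -2.70). Their highest value in any library was 4.195 CPM for *Wnt16* and 3.50 CPM for *Wnt3*, and the others reached at most 0.412 CPM for *Wnt9b*, 0.268 for *Wnt8b*, 0.167 for *Wnt8a*, 0.162 for *Wnt10b*, 0.067 for *Wnt10a*, 0.0563 for *Wnt1* and 0.0528 for *Wnt3a*. The 10 members held between 97.5% and 99.6% of the summed RPKM of the ligand genes in every library.

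The comparison of GFP+ with GFP- cells at P1 asked which ligands differ in level between the 2 sorted fractions. To be called past the criteria, a gene needed a fold change over 4 and both a p and a Benjamini-Hochberg adjusted p (p-adj, over all tested genes) under 0.01 in edgeR's quasi-likelihood test. At P1, 2 ligands were higher in GFP+ cells (*Wnt7a* and *Wnt7b*) and 4 were lower (*Wnt5a*, *Wnt5b*, *Wnt6* and *Wnt11*), among the 9 ligands with enough counts to be tested. Of all 18682 genes tested, 6.46% were past the criteria as higher and 11.4% as lower. The median log2 fold change over the 9 ligands was -1.77, against 0.01 over all genes. In sorted fractions such as these, fewer cells of a type and less RNA per cell cannot be told apart.

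*Wnt7a* (ENSMUSG00000030093, chromosome 6, 91313975 to 91361357), known from limb patterning and brain vessel growth, stood at 252 and 271 CPM in P1 GFP+ cells, against 2.80 and 9.02 CPM in P1 GFP- cells. It was 46.2-fold higher in GFP+ cells (log2 fold change 5.53, SE 0.51, p-adj = 0.000322). By in situ hybridization, the authors scored *Wnt7a* as ubiquitous at P1 and in supporting cells at P6. *Wnt7b* (ENSMUSG00000022382, chromosome 15, 85365869 to 85412251), its closest relative and a β-catenin activating ligand in lung and kidney, measured 57.8 and 59.6 CPM in GFP+ cells and 7.94 and 21.2 CPM in GFP- cells. The GFP+ replicates of both genes lay close together and the GFP- replicates were spread over 3.22-fold for *Wnt7a* and 2.67-fold for *Wnt7b*. *Wnt7b* was 4.28-fold higher (log2 fold change 2.10, SE 0.41, p-adj = 0.00714), close to the 4-fold criterion. P1 GFP- replicate 2, the higher of the pair, also held more counts of the supporting cell markers (254 against 139 CPM), the neuron markers (521 against 163 CPM) and the strial marginal cell markers (20.5 against 7.86 CPM), and the part of these cells in the *Wnt7* counts was not tested. Without P1 GFP- replicate 2 the log2 fold changes were 6.64 for *Wnt7a* and 2.98 for *Wnt7b*. Without P1 GFP- replicate 1 they were 4.94 and 1.54, so that *Wnt7b* then fell short of 4-fold, and without either GFP+ replicate its p-adj was 0.0291 or 0.0276. Of the *Wnt7b* exon bases, 38 of 4413 overlap AU022754 on the other strand, and whether the counting used strand is not given in the sources used here. *Wnt5a* (358 of 7822 bases, *Gm2670*) and *Wnt11* (364 of 3633 bases, *Gm8398*) also overlap genes on the other strand, which were not among those counted.

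*Wnt5a* (ENSMUSG00000021994, chromosome 14, 29317936 to 29340633), the ligand of the polarity pathway, measured 44.2 and 43.9 CPM in P1 GFP+ cells and 280 and 294 CPM in P1 GFP- cells. It was 6.06-fold lower in GFP+ cells (log2 fold change -2.60, SE 0.09, p-adj = 1.40e-05), with nearly equal replicates in both groups. *Wnt5b* (ENSMUSG00000030170, chromosome 6, 119382549 to 119494336), a relative expressed in cartilage, measured 0.807 and 1.37 CPM in GFP+ cells and 9.50 and 9.70 CPM in GFP- cells. It was 8.48-fold lower (log2 fold change -3.08, SE 0.28, p-adj = 0.000316). The sums of the 6 mesenchyme and fibrocyte markers (314 to 340 CPM in P1 GFP+ and 13428 to 15454 CPM in P1 GFP- cells) and of the 6 cartilage and bone markers (5152 to 6526 and 15089.5 to 15191 CPM) differed between the fractions in the same direction, and no defining marker of the first list was at 0 in a library. Their part in the *Wnt5a* and *Wnt5b* levels was not tested.

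*Wnt6* (ENSMUSG00000033227, chromosome 1, 74818466 to 74831893), an epithelial ligand of the early embryo, measured 0.153 and 0.0803 CPM in P1 GFP+ cells and 7.79 and 7.48 CPM in P1 GFP- cells. It was 55.0-fold lower in GFP+ cells (log2 fold change -5.78, SE 0.34, p-adj = 6.11e-05), on 9 counts in the GFP+ libraries together. *Wnt11* (ENSMUSG00000015957, chromosome 7, 105983622 to 106003705), a ligand of cell movement and kidney branching, measured 0.196 and 0.161 CPM in GFP+ cells and 1.45 and 1.51 CPM in GFP- cells. It was 7.42-fold lower (log2 fold change -2.89, SE 0.38, p-adj = 0.00132), on 13 counts in GFP+ cells. The fractions did not overlap for either gene, but the low GFP+ counts leave the size of the *Wnt6* and *Wnt11* differences imprecise. Without P1 GFP+ replicate 1 or 2 the p-adj of *Wnt11* was 0.0175 or 0.0167.

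The remaining ligands did not pass all criteria at P1. *Wnt9a* (ENSMUSG00000000126, chromosome 11, 59120430 to 59147054), known from joint formation, measured 3.80 and 4.14 CPM in GFP+ cells and 12.6 and 16.5 CPM in GFP- cells. Its 3.42-fold difference (log2 fold change -1.77, SE 0.20, p-adj = 0.000687) passed the test and fell short of the fold criterion. *Wnt2b* (ENSMUSG00000027840, chromosome 3, 104747723 to 104764627), a β-catenin activating ligand of lung specification, measured 9.34 and 9.04 CPM in GFP+ cells and 6.07 and 4.09 CPM in GFP- cells (log2 fold change 0.97, SE 0.24, p-adj = 0.0169). *Wnt4* (ENSMUSG00000036856, chromosome 4, 136833404 to 136855641), known from kidney tubule and gonad formation, measured 2.73 and 1.65 CPM in GFP+ cells and 2.80 and 4.39 CPM in GFP- cells (log2 fold change -0.59, SE 0.36, p-adj = 0.221). *Wnt2* (ENSMUSG00000010797, chromosome 6, 17938940 to 17980585), which acts with *Wnt2b* in lung, had 2 and 0 counts in GFP+ cells and 11 and 13 counts in GFP- cells and was not tested. The groups did not overlap for any of the 10 ligands at P1, and the same held for 79.3% of all genes tested, so it does not set the ligands apart.

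**Figure D3:**
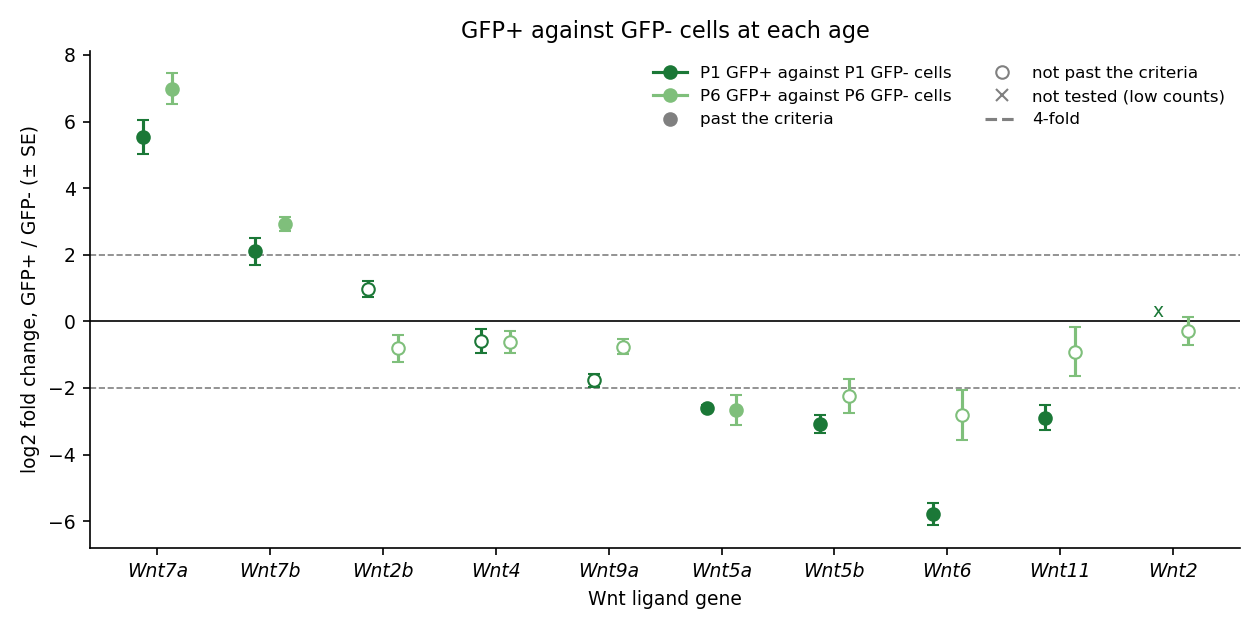
log2 fold change of each Wnt ligand between GFP+ and GFP- cells at P1 (dark) and P6 (light), with bars for the standard error, filled points for genes past the criteria, open points for others, a cross for the gene not tested and dashed lines at 4-fold. *Wnt7a* and *Wnt7b* lie above the upper dashed line at both ages, with 5.53 and 2.10 at P1 and 6.99 and 2.93 at P6, and *Wnt5a* lies below the lower line at both ages, with -2.60 and -2.67.

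The same comparison at P6 gave 2 ligands higher in GFP+ cells (*Wnt7a* and *Wnt7b*) and 1 lower (*Wnt5a*) among all 10. Of the 18294 genes tested at P6, 4.88% were past the criteria as higher and 3.10% as lower. Higher genes made up 61.1% of all genes past the criteria, and 73.9% when the libraries were scaled by their gene totals in place of TMM factors. *Wnt7a* measured 209 and 163 CPM in the P6 GFP+ libraries and 2.01 and 0.916 CPM in the P6 GFP- libraries. It was 127-fold higher in GFP+ cells (log2 fold change 6.99, SE 0.46, p-adj = 0.000904). *Wnt7b* measured 87.9 and 71.0 CPM in GFP+ cells and 11.2 and 9.62 CPM in GFP- cells, and was 7.60-fold higher (log2 fold change 2.93, SE 0.20, p-adj = 0.000989). For both genes the lower of the GFP+ values was in replicate 2. Without that library their log2 fold changes were 7.19 and 3.10, and without P6 GFP- replicate 2 they were 6.51 and 2.80. Neither gene passed in the latter fit, but no gene of any kind did, so that fit cannot single out these ligands.

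*Wnt5a* measured 46.9 and 120 CPM in the P6 GFP+ libraries and 553 and 496 CPM in the P6 GFP- libraries. It was 6.36-fold lower in GFP+ cells (log2 fold change -2.67, SE 0.44, p-adj = 0.00937). The fractions did not overlap, but the GFP+ replicates differed by 2.55-fold, where those at P1 were nearly equal. *Wnt5b* measured 1.29 and 4.15 CPM in GFP+ cells and 13.8 and 12.4 CPM in GFP- cells (log2 fold change -2.24, SE 0.51, p-adj = 0.0223). *Wnt6* measured 0.113 and 1.21 CPM in GFP+ cells and 5.43 and 4.64 CPM in GFP- cells (log2 fold change -2.81, SE 0.74, p-adj = 0.0343). For these 3 ligands the higher GFP+ value was that of replicate 2, by 2.55-fold, 3.21-fold and 10.7-fold. Without P6 GFP+ replicate 2, *Wnt5b* (log2 fold change -3.31, p-adj = 1.12e-07) and *Wnt6* (-5.43, p-adj = 8.04e-07) passed the criteria and *Wnt5a* remained past them at -3.46. Without P6 GFP+ replicate 1, *Wnt5a* was at -2.11 and *Wnt6* at -2.04, both past the criteria, and *Wnt5b* was at -1.63, short of 4-fold. Without P6 GFP- replicate 1 or 2 *Wnt5a* did not pass, in fits that called few genes or none as lower.

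**Figure D4:**
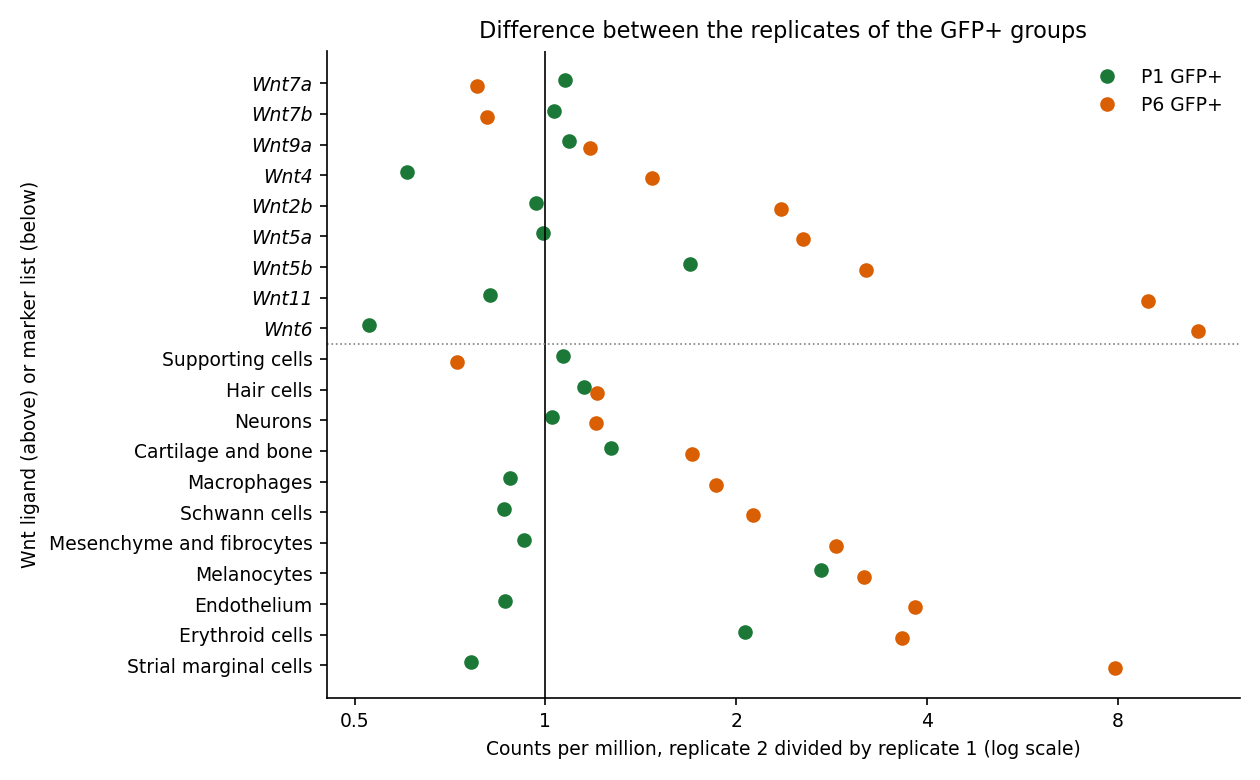
Ratio of replicate 2 to replicate 1 in CPM, on a log scale, for 9 Wnt ligands (above the dotted line) and for the summed level of 11 marker lists (below), in P1 GFP+ (green) and P6 GFP+ (orange) libraries. At P6, *Wnt7a* (0.78), *Wnt7b* (0.807) and the supporting cell list (0.725) lie to the left of 1. All other ligands and lists drawn lie to the right, among them *Wnt5a* (2.55), *Wnt5b* (3.21), *Wnt6* (10.7), mesenchyme and fibrocytes (2.87) and endothelium (3.82).

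Other ligands of the P6 comparison did not pass. *Wnt9a* measured 6.87 and 8.07 CPM in GFP+ cells and 12.7 and 12.4 CPM in GFP- cells (log2 fold change -0.76, SE 0.22, p-adj = 0.0429). *Wnt2b* measured 4.45 and 10.4 CPM in GFP+ cells and 13.6 and 12.5 CPM in GFP- cells (log2 fold change -0.81, SE 0.40, p-adj = 0.172), so that its GFP+ values were below the GFP- values at P6 and above them at P1. Without P6 GFP+ replicate 2, *Wnt2b* was at -1.53 (p-adj = 4.03e-05), past the test and short of 4-fold, and without P6 GFP+ replicate 1 it was at -0.30. *Wnt11* (-0.91, p-adj = 0.392) had a replicate 2 in GFP+ cells 8.92 times replicate 1, and was at -3.30 (p-adj = 0.0230) without replicate 2 and at -0.19 without replicate 1. *Wnt4* was at -0.62 (p-adj = 0.197) and *Wnt2* at -0.29 (p-adj = 0.625). *Wnt2* measured 1.69 and 1.07 CPM in GFP+ cells and 1.96 and 1.36 CPM in GFP- cells, ranges that overlapped.

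The comparison of P6 with P1 within the GFP+ cells asked whether the ligands of the sorted cells differ between the ages. It shares its libraries with the comparisons of fractions above, so the values are set side by side only. The summed markers of mesenchyme and fibrocytes were higher in both P6 GFP+ libraries (995 and 2859 CPM) than at P1 (340 and 314 CPM). So were those of Schwann cells (1114 and 2366 against 420 and 361 CPM). The sums of supporting cells and of hair cells were lower in both P6 libraries. Those of melanocytes (26.3 and 83.5 against 0.960 and 2.61 CPM), endothelium (64.9 and 248 against 30.7 and 26.5 CPM), macrophages, erythroid cells and neurons were higher in both. The sums of cartilage and bone and of strial marginal cells overlapped between the ages. Within the cartilage and bone list, 5 of 6 genes had a positive log2 fold change (median 4.15), and 1 (*Ibsp*) passed the criteria. Age and the part of such cells in the P6 against P1 values of GFP+ cells, here and below, cannot be told apart. None of the 8 ligands tested passed the criteria in either direction by edgeR, where 1.63% of 17213 genes were past the criteria as higher and 0.930% as lower at P6. At an unadjusted p below 0.05, 3 of the 8 ligands were higher and 0 were lower, against 21.1% and 17.1% of all genes tested, and DESeq2 called 1 (*Wnt2*). *Wnt7a* went from 252 and 271 CPM to 209 and 163 CPM (log2 fold change -0.40, SE 0.17, p-adj = 0.163), and *Wnt7b* from 57.8 and 59.6 CPM to 87.9 and 71.0 CPM (0.53, SE 0.16, p-adj = 0.0692). Neither gene passed the criteria, and the 2 log2 fold changes had opposite signs. The ratio of *Wnt7a* to *Wnt7b* counts within a library, which needs no scaling between libraries, was 4.37 and 4.55 in GFP+ cells at P1 and 2.38 and 2.30 in GFP+ cells at P6. In GFP- cells it was 0.352 and 0.425 at P1 and 0.179 and 0.0952 at P6. The ratio was not tested, and its replicates lay closer together in GFP+ cells than the ages did. *Wnt9a* went from 3.80 and 4.14 CPM to 6.87 and 8.07 CPM (log2 fold change 1.01, SE 0.23, p-adj = 0.0391), short of both criteria. *Wnt5a* (1.00, SE 0.41, p-adj = 0.140) and *Wnt5b* (1.46, SE 0.62, p-adj = 0.150) had their larger P6 value in replicate 2. Without that library their log2 fold changes were 0.22 and 0.44, and without P6 GFP+ replicate 1 they were 1.503 and 2.06, the latter past the criteria (*Wnt5b*, p-adj = 1.89e-05). *Wnt4* (0.56, p-adj = 0.335) and *Wnt2b* (-0.21, p-adj = 0.732, and -0.93 without P6 GFP+ replicate 2) did not pass, and *Wnt6* and *Wnt11* had too few counts to be tested. Without P6 GFP+ replicate 1, *Wnt6* was tested and was past the criteria as higher at P6.

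*Wnt2* had the largest log2 fold change between P1 and P6 of the ligands tested, in GFP+ and in GFP- cells. In GFP+ cells it had 2 and 0 counts at P1 and 30 and 32 counts at P6, or 0.0436, 0, 1.69 and 1.07 CPM. The ratio of the pooled counts, relative to the library totals, was 46.0, with a 95% exact interval of 12.2 to 388 that covers counting error only. The edgeR p-adj was 0.0118, just above the threshold, and 4 of the other fits and 3 of the 4 fits without 1 library placed it past the criteria, with p-adj over all of them between 5.70e-07 and 0.147. In GFP- cells it measured 0.290 and 0.206 CPM at P1 and 1.96 and 1.36 CPM at P6, on 24 and 213 counts, and was 7.77-fold higher at P6 (log2 fold change 2.96, SE 0.43, p-adj = 0.00510). *Wnt2* was thus the only ligand past the criteria between ages in GFP- cells by edgeR. Without P6 GFP- replicate 1 or 2 its p-adj was 0.0483 or 0.0186. Its level stayed low, at 0.612 ± 0.193 RPKM in P6 GFP+ and 0.736 ± 0.189 RPKM in P6 GFP- cells, against 58.7 RPKM for *Wnt7a* in P6 GFP+ cells.

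**Figure D5:**
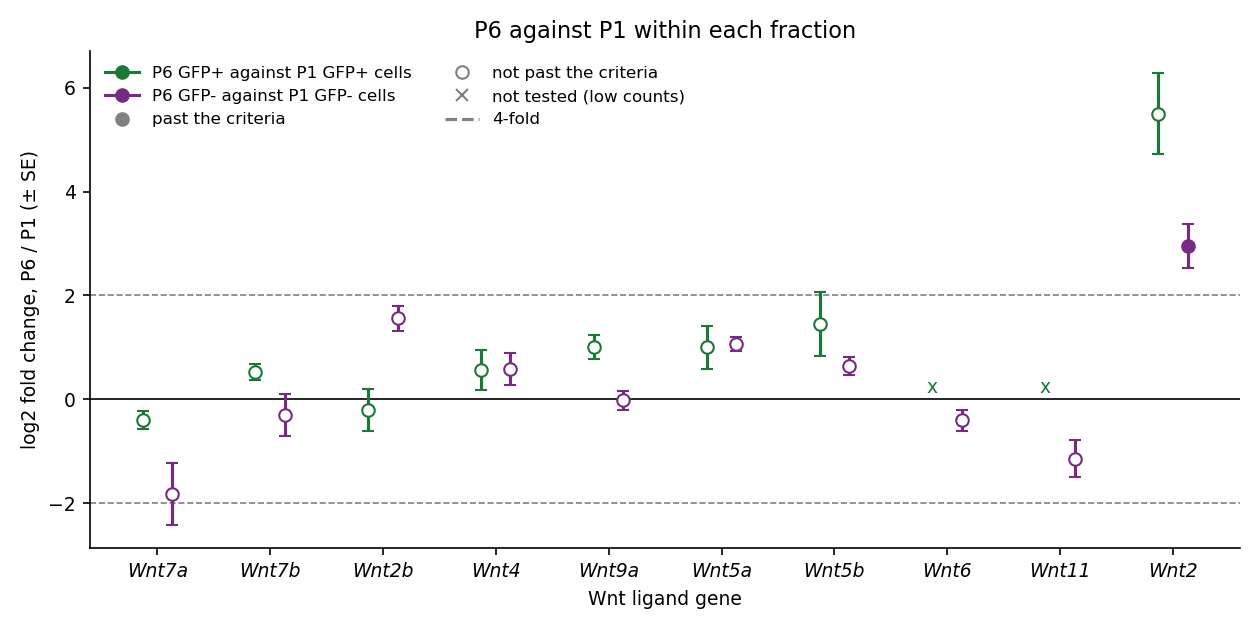
log2 fold change of each Wnt ligand between P6 and P1 in GFP+ (green) and GFP- cells (purple), with bars for the standard error, filled points for genes past the criteria, open points for others, crosses for genes not tested and dashed lines at 4-fold. *Wnt2* lies at 5.50 in GFP+ and 2.96 in GFP- cells, and the other tested ligands lie between -1.82 and 1.56.

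In GFP- cells, 1 ligand was higher at P6 (*Wnt2*) and 0 were lower among 10 tested by edgeR, where 1.43% of 18920 genes were past the criteria as higher and 0.418% as lower. At an unadjusted p below 0.05, 4 ligands were higher and 2 lower, against 18.4% and 16.0% of all genes tested, and DESeq2 also called 1 higher and 0 lower. Higher genes made up 77.4% of all genes past the criteria in this comparison, and 65.8% with scaling by gene totals. *Wnt5a* went from 280 and 294 CPM at P1 to 553 and 496 CPM at P6, a 2.09-fold difference (log2 fold change 1.06, SE 0.13, p-adj = 0.00273) that passed the test and not the fold criterion. *Wnt2b* went from 6.07 and 4.09 CPM to 13.6 and 12.5 CPM, a 2.95-fold difference (1.56, SE 0.24, p-adj = 0.00617) that likewise passed the test alone. The replicates of both genes lay well apart from those of the other age. *Wnt5b* (0.64, p-adj = 0.0397), *Wnt4* (0.58, p-adj = 0.220), *Wnt9a* (-0.02, p-adj = 0.954), *Wnt7b* (-0.30, p-adj = 0.641), *Wnt6* (-0.41, p-adj = 0.216) and *Wnt11* (-1.15, p-adj = 0.0667) did not pass. *Wnt7a* measured 2.80 and 9.02 CPM at P1 and 2.01 and 0.916 CPM at P6 (log2 fold change -1.82, SE 0.60, p-adj = 0.0791), with P1 GFP- replicate 2 apart from the other 3 libraries. Without P1 GFP- replicate 1 it was at -2.44 and past the criteria, and without replicate 2 at -0.76. In GFP- cells the cartilage and bone markers summed to 15089.5 to 15191 CPM at P1 and 33010 to 35487 CPM at P6, with 4 of 6 past the criteria as higher, and their part in the age differences of the ligands was not tested.

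Whether the ratio of a gene's level in GFP+ cells to that in GFP- cells differed between the ages was tested as the interaction over all 8 libraries. None of the 10 ligands passed by edgeR, where 0.946% of 19233 genes had a higher ratio and 0.988% a lower ratio at P6. Higher ratios made up 48.9% of these, and 60.2% with scaling by gene totals. At an unadjusted p below 0.05, 3 ligands had a higher ratio and 1 a lower one, against 12.3% and 8.98% of all genes tested, and DESeq2 called 1 (*Wnt2b*, lower). *Wnt2b* was the ligand with values above GFP- cells at P1 and below them at P6, and its interaction was -1.79 (SE 0.51, p-adj = 0.0801). That p-adj ranged from 4.58e-05 to 0.240 over the alternatives, and was 0.00322 without P6 GFP+ replicate 2 and 0.00930 with DESeq2. *Wnt9a* had an interaction of 1.00 (SE 0.28, p-adj = 0.0799) and *Wnt6* one of 2.97 (SE 0.99, p-adj = 0.127). The *Wnt6* value rested on P6 GFP+ replicate 2. It was 0.33 without that library, and 3.67 (p-adj = 0.00179) without P6 GFP+ replicate 1. The interactions of *Wnt7a* (1.43, SE 0.71, p-adj = 0.302), *Wnt7b* (0.81, SE 0.53, p-adj = 0.440) and *Wnt5a* (-0.09, SE 0.48, p-adj = 0.948) did not pass.

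The genes whose profile over the 8 libraries was most like that of a ligand were found by the Euclidean distance between log2(CPM + 0.5) profiles, each centred on its own mean, among 15273 genes. The profiles share libraries and depth, and the distances are given as a description. For *Wnt7a* they were *Agr3* (distance 1.03), *Igfbpl1* (1.57) and *Nrip3* (1.61), and *Wnt7b* came at rank 339, while *Wnt7a* came at rank 12598 for *Wnt7b*. This distance grows with the size of a difference as well as with its pattern. Both *Wnt7* genes were higher in GFP+ cells at both ages, by 46.2-fold and 4.28-fold at P1, so these ranks do not mean opposite directions. For *Wnt7b* they were *Tmprss6* (0.41), *Baiap2l1* (0.45) and *Cdkl2* (0.51). The profiles of *Wnt5a* and *Wnt5b* lay closer by this distance (0.71, against 5.32 for the *Wnt7* pair). *Wnt5b* ranked 37 among the genes nearest to *Wnt5a*, and *Wnt5a* ranked 35 for *Wnt5b*. The nearest genes were *Vav1* (0.35), *Rgl1* (0.41) and *Irx2* (0.43) for *Wnt5a*, and *Ccdc88b* (0.45), *Ccdc85a* (0.52) and *Vldlr* (0.52) for *Wnt5b*. For *Wnt9a* they were *Bin1* (0.30), *Def6* (0.39) and *4930572J05Rik* (0.40).

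Counts of genes past the criteria in the lists of the Wnt pathway depend on the P6 GFP+ libraries. At P6 each list had more lower genes without P6 GFP+ replicate 2. For the ages of GFP+ cells and the interaction, the counts of some lists also changed without 1 of these libraries. The counts are to be read against the shares of all genes tested, 6.46% higher and 11.4% lower at P1 and 4.88% higher and 3.10% lower at P6. Of 10 genes for acylation, secretion and inactivation, 0 were higher and 1 lower in GFP+ cells at P1, and 0 passed in either direction at P6 by edgeR, near those shares. The gene that passed was *Notum*, an enzyme that removes the lipid and so inactivates Wnt proteins, at 6.96 and 5.87 CPM in P1 GFP+ and 81.5 and 59.0 CPM in P1 GFP- cells (log2 fold change -3.33, SE 0.21, p-adj = 7.22e-05). In the sorted GFP+ cells *Notum* was higher at P6 than at P1, at 25.7 and 33.3 CPM (log2 fold change 2.29, SE 0.21, p-adj = 0.00428). The part of other cell types in this difference was not tested. *Porcn* and *Wls*, named for their role, were present in every library, at 20.7 to 41.7 CPM and 114 to 285 CPM. *Porcn* attaches the lipid and had log2 fold changes of -0.14 (p-adj = 0.593) at P1 and -0.44 (p-adj = 0.175) at P6. *Wls* carries the acylated ligand to the cell surface, and its log2 fold change between P6 and P1 in GFP+ cells was 1.29 (SE 0.14, p-adj = 0.00668), past the test and short of 4-fold.

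Of 17 receptors and co-receptors, 3 were higher and 3 lower in GFP+ cells at P1, and 1 was higher and 2 were lower at P6, where the 1 higher is near the share of 4.88% over all genes. *Fzd4*, a Frizzled receptor, measured 261 and 228 CPM in P1 GFP+ and 7.47 and 7.19 CPM in P1 GFP- cells (log2 fold change 5.17, p-adj = 9.99e-06), and 87.2 and 109 CPM against 19.3 and 15.3 CPM at P6 (2.50, p-adj = 0.00140). Its ratio was lower at P6 (interaction -2.69, SE 0.25, p-adj = 0.00141). *Fzd6*, a Frizzled of the polarity pathway, was higher at P1 (2.19, p-adj = 1.92e-05). *Gpr124* and *Reck* form a co-receptor complex that is known to respond to *Wnt7a* and *Wnt7b* only, among Wnt ligands. *Gpr124* was lower in GFP+ cells at P1, at 10.1 and 13.3 CPM against 498 and 448 CPM in P1 GFP- cells (log2 fold change -5.25, p-adj = 1.09e-05). At P6 *Gpr124* was at -2.88, beyond 4-fold, and did not pass the test with both replicates. Without P6 GFP+ replicate 1 *Gpr124* was at -2.21, still beyond 4-fold. *Reck* was lower in GFP+ cells at P6, at 9.96 and 25.9 CPM against 100.2 and 106 CPM in P6 GFP- cells (-2.53, SE 0.43, p-adj = 0.00966). *Fzd1* was also lower in GFP+ cells at P6 (-2.22, p-adj = 0.00223). Without P6 GFP+ replicate 2 *Reck* was at -3.35, and without replicate 1 *Reck* (-1.97) and *Fzd1* (-1.95) fell short of 4-fold. With all libraries, none of the 17 passed between the ages in GFP+ or GFP- cells by edgeR. For GFP+ cells this did not hold without P6 GFP+ replicate 1. The interaction was past its threshold for *Fzd4*, *Fzd9* (-2.42, p-adj = 0.00531) and *Ror2* (1.82, p-adj = 0.00687).

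Secreted antagonists were found in both fractions. Of 13 such genes, 11 were tested, and 2 were higher and 5 lower in GFP+ cells at P1, against 1 and 2 at P6 (6.46% and 11.4% of all genes at P1, 4.88% and 3.10% at P6). *Frzb*, a soluble Frizzled-related protein, measured 300.1 and 340 CPM in P1 GFP+ and 17.9 and 18.7 CPM in P1 GFP- cells (log2 fold change 4.23, p-adj = 9.99e-06). At P6 it stood at 64.8 and 76.7 CPM in GFP+ and 86.5 and 69.5 CPM in GFP- cells, having fallen in GFP+ cells (-2.08, SE 0.14, p-adj = 0.00273) and risen in GFP- cells (2.29, SE 0.15, p-adj = 0.000387), with an interaction of -4.40 (p-adj = 0.000194). *Sfrp1*, of the same family, was higher in GFP+ cells at P6, at 444 and 472 CPM against 76.7 and 53.5 CPM (2.81, p-adj = 0.00168). *Wif1*, which binds Wnt proteins directly, was lower in GFP+ cells at P1 (-3.27, p-adj = 0.000101) and P6 (-2.92, p-adj = 0.00401), as was *Igfbp4* (-5.07, p-adj = 9.99e-06, and -2.79, p-adj = 0.00676). *Igfbp4* was higher in GFP+ cells at P6 than at P1 (3.56, SE 0.39, p-adj = 0.00646), at 126 and 272 CPM against 18.98 and 16.6 CPM, with the higher value in P6 GFP+ replicate 2, and was at 2.93 without that library. *Frzb* in GFP+ cells was at -1.99, short of 4-fold, without P6 GFP+ replicate 1. *Sfrp4* rose in GFP- cells from 2.32 and 3.28 CPM to 55.7 and 65.5 CPM (4.61, SE 0.20, p-adj = 7.25e-05).

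Most target and feedback genes of β-catenin signalling that passed were lower in GFP+ cells. Of 13 such genes, 1 was higher and 6 lower at P1, and 1 was higher and 3 lower at P6, beside shares over all genes of 6.46% and 11.4% at P1 and 4.88% and 3.10% at P6. *Lef1*, a transcription factor of the pathway, measured 3.29 and 3.33 CPM in P1 GFP+ and 144 and 128 CPM in P1 GFP- cells (log2 fold change -5.25, p-adj = 9.99e-06). *Apcdd1* (-5.07, p-adj = 9.99e-06) and *Dact1* (-3.69, p-adj = 1.59e-05), inhibitors induced by the pathway, were also lower at P1, and *Dact1* (-3.00, p-adj = 0.00249) and *Myc* (-2.23, p-adj = 0.00329, and -1.94 without P6 GFP+ replicate 1, short of 4-fold) at P6. Without P6 GFP+ replicate 2, 2 of the 13 were higher and 7 lower at P6. *Lgr5*, an R-spondin receptor that marks supporting cells able to divide, was the 1 gene higher in GFP+ cells at both ages. At P6 it stood at 325 and 296 CPM in GFP+ and 29.4 and 34.7 CPM in GFP- cells (3.27, SE 0.19, p-adj = 0.000762). With all libraries, none of the 13 passed between the ages in GFP+ or GFP- cells by edgeR. For GFP+ cells this did not hold without P6 GFP+ replicate 1 or without replicate 2. At P1 the median log2 fold change over these 13 genes was -1.95, against 0.01 over all genes tested.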

How the data were processed

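RNA-seq was performed by the authors on GFP+ and GFP- cells sorted from P1 and P6 cochleas, with 2 libraries a group. The authors deposited unnormalized read counts, 1 for each Ensembl gene and library. The submitters' processing notes name TopHat 1.4.0, HTSeq, DESeq 1.9.2 and the mm9 build. The counting mode and strand setting are not given in the sources used here. Reads listed on no gene (13.8% to 25.6% of a library), on several genes or at several places were left out.

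The NCBIM37 annotation gave symbols, positions and exon lengths for 34391 of the 36536 genes. Each comparison was fitted on its 4 libraries with edgeR 4.0.16 in R 4.3.3, using filterByExpr (minimum count 10, minimum total 15), TMM factors and the quasi-likelihood test with adjustment over all genes. The interaction used 8 libraries. The procedure was tested on simulated data. Coding sequences were aligned with Biopython 1.88. DESeq2 1.42.0 and the other alternatives are given below.

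The members and gene lists were chosen with earlier results of these data known. At most 3 genes of each pathway list were named per comparison, those past the criteria with the smallest p-adj. Low counts limit the precision of *Wnt2*, *Wnt6* and *Wnt11*. The genes with profiles most like that of *Wnt2b* are not reported here.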

Additional observations from a re-analysis of the deposited data

How the results depend on the processing

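No member reversed its direction as a called value under any alternative. With scaling by library gene totals, 1 ligand in place of 2 was higher in GFP+ cells at P1 and 0 in place of 1 was lower at P6. Testing against a fold of 4 (glmTreat) gave 1 higher and 2 lower at P1, 1 higher and 0 lower at P6, and 0 higher between ages in GFP- cells. DESeq2 gave 3 lower at P6, 1 higher between ages in GFP+ cells and 1 with a lower ratio at P6. No filter on low counts gave 3 lower at P6, 1 higher between ages in GFP+ cells, and 2 with a higher and 1 with a lower ratio. A fit of all 8 libraries gave 3 lower at P6 and 1 higher between ages in GFP+ cells. Without the fold criterion, 3 were higher between ages in GFP- cells. The cause was not tested. Without division by exon length, 27 of 40 mean shares of a ligand moved by over 1 SD.

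Leaving out 1 library gave 1 to 2 higher and 3 to 4 lower at P1, 0 to 2 higher and 0 to 3 lower at P6, 0 to 3 higher and 0 lower between ages in GFP+ cells, 0 to 1 higher and 0 to 1 lower in GFP- cells, and 0 to 1 in each direction for the interaction. An arm left with 1 library was assumed to vary like the other.

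The correlations of same-numbered deviations were 0.0103, 0.0773, -0.0746 and -0.276. They cannot decide whether same-numbered libraries came from the same cochleas, because each group gives only the difference between its replicates. The library labels do not state a pairing, and the main fits used none. With the replicate block, 1 ligand (*Wnt2*) was higher between ages in GFP+ cells and no other count of ligands changed. A crossed pairing in GFP- cells, chosen after seeing the data, gave 337 genes higher and 228 lower between ages, against 271 and 79.

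Over all genes, those lower in GFP+ cells at P6 numbered 567, and 1211 with DESeq2, 295 with gene totals, 1473 without a filter, 1294 with all 8 libraries and 955 with the block. Genes higher between ages in GFP+ cells numbered 281, and 778, 1019, 752 and 426 with DESeq2, no filter, all 8 libraries and the block. Without P6 GFP- replicate 2, 0 genes were past the criteria at P6. For the interaction, 182 genes had a higher and 190 a lower ratio, and 891 and 548 with DESeq2, 1658 and 742 without a filter, and 74 and 77 with the block. With glmTreat, 485 genes were higher and 1015 lower at P1, 190 and 1 at P6, 14 and 6 for the ages of GFP+ cells, and 53 and 0 for those of GFP- cells. Scaling by gene totals moved the median log2 fold change of all genes to -0.21 between ages in GFP- cells and to 0.16 for the interaction. The values of pathway genes without a P6 GFP+ library were computed after seeing the data.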
